A study of Homo sapiens with 4 samples.

Results

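Mitochondrial ribosomal protein genes were taken as every gene of the count table whose symbol is MRPL or MRPS followed by a number and, at most, a letter A, B or C, which leaves pseudogenes out. The rule gave 78 of 36359 genes, 49 with MRPL and 29 with MRPS symbols, on 21 chromosomes. ACHN, an established line of human renal cell carcinoma, received either control siRNA (siNC) or siRNA against PRR11 (siPRR11), with 2 libraries each, and RNA was sequenced to ask what PRR11 silencing changes. All 4 libraries come from this 1 line and carry an siRNA, and the labels name neither the number of siRNAs used nor the time of harvest. The labels do not say that libraries came from separate cultures, so p-values measure only the spread between these libraries, which may be technical.

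Mitochondria carry their own ribosome, which translates the few messenger RNAs encoded by mitochondrial DNA, all of them for subunits of the oxidative phosphorylation complexes. Its ribosomal RNAs are transcribed inside the organelle, whereas its proteins are encoded in the nucleus, made in the cytosol and imported. Some of these proteins have a counterpart in the bacterial ribosome, and others are found only in mitochondria. MRPL symbols stand for the large subunit and MRPS symbols for the small one, with exceptions. MRPS30 and MRPS18A lie in the large subunit of the solved structures, and MRPS36 is a subunit of the 2-oxoglutarate dehydrogenase complex. By structure, the 78 genes comprise 51 of the large subunit, 26 of the small subunit and MRPS36.

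PRR11 itself had 41.3 and 40.4 CPM (counts scaled to library size by TMM) in the siNC libraries and 15.3 and 14.0 CPM in the siPRR11 libraries, 35.9% of the siNC level. It lay far lower in both siPRR11 libraries (log2 fold change -1.48 ± 0.09 SE, edgeR quasi-likelihood test, adjusted p = 3.4e-06). The libraries held between 59003839 and 92612749 counted reads, siNC library 2 being the shallowest. Among low counts of 1 to 20, between 76.5% and 78.0% were even in each library. Of 10 markers of renal epithelium and carcinoma, 9 had enough counts to be tested, among them PAX8 at 253 to 375 CPM. The other, CA9, a marker of clear cell carcinoma, had at most 3 counts in any library. Of the 9, KRT18 was called higher, and EPCAM and LHX1 were called lower, LHX1 not without siNC library 2 (log2 fold change -0.25) or siPRR11 library 1 (-0.41). Of 10 markers of other cell types, 3 had enough counts to be tested. These were CD68 (45.2 to 60.1 CPM), ALB (0.90 to 1.13 CPM) and NPHS1 (0.07 to 0.16 CPM). Of these, edgeR called 0, as did DESeq2 and limma, with 0 at an unadjusted p under 0.05. The 7 others, among them PTPRC and CD3E, had at most 8 counts in any library.

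PRR11 silencing left the transcripts of the mitochondrial ribosome close to their control level as a family, while 9 of the 78 genes moved by a modest amount. MRPS34 and MRPL20 rose. MRPL49, MRPL48, MRPS26, MRPL12, MRPL9, MRPS25 and MRPS5 fell. The largest fall was to 68.4% of the siNC level (MRPL49) and the largest rise was to 140% (MRPS34).

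All 78 genes had enough reads to be tested, with 326 to 19248 counts per library. Called genes made up 11.5% of them, against 16.7% of the 21630 genes tested (edgeR, adjusted p under 0.05). The 2 rises compare with 7.61% of all genes called higher, and the 7 falls with 9.14% called lower. Among the 10223 genes within the same range of average expression as the family, 25.1% were called. At an unadjusted p under 0.05, 15 of the 78 passed, or 19.2%, against 30.3% of all genes and 41.1% of those in the same expression range.

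The median log2 fold change of the family was -0.003, against 0.002 over all genes tested, and 39 members lay on each side of 0. Its middle range was narrow. The quartiles were -0.12 and 0.08 on the log2 scale, whereas those of all genes were -0.22 and 0.22. A change under 0.2 in size was measured for 64 members, or 82.0%, compared with 46.0% of all genes and 56.8% of the genes in the same expression range. Of the 69 members not called, 67 had a 95% interval that stayed within a 1.5-fold change in either direction. The 2 exceptions were MRPL1 (log2 fold change -0.37, interval -0.64 to -0.09) and MRPL54 (0.32, interval 0.04 to 0.59), which were among the least expressed members.

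**Figure D1:**
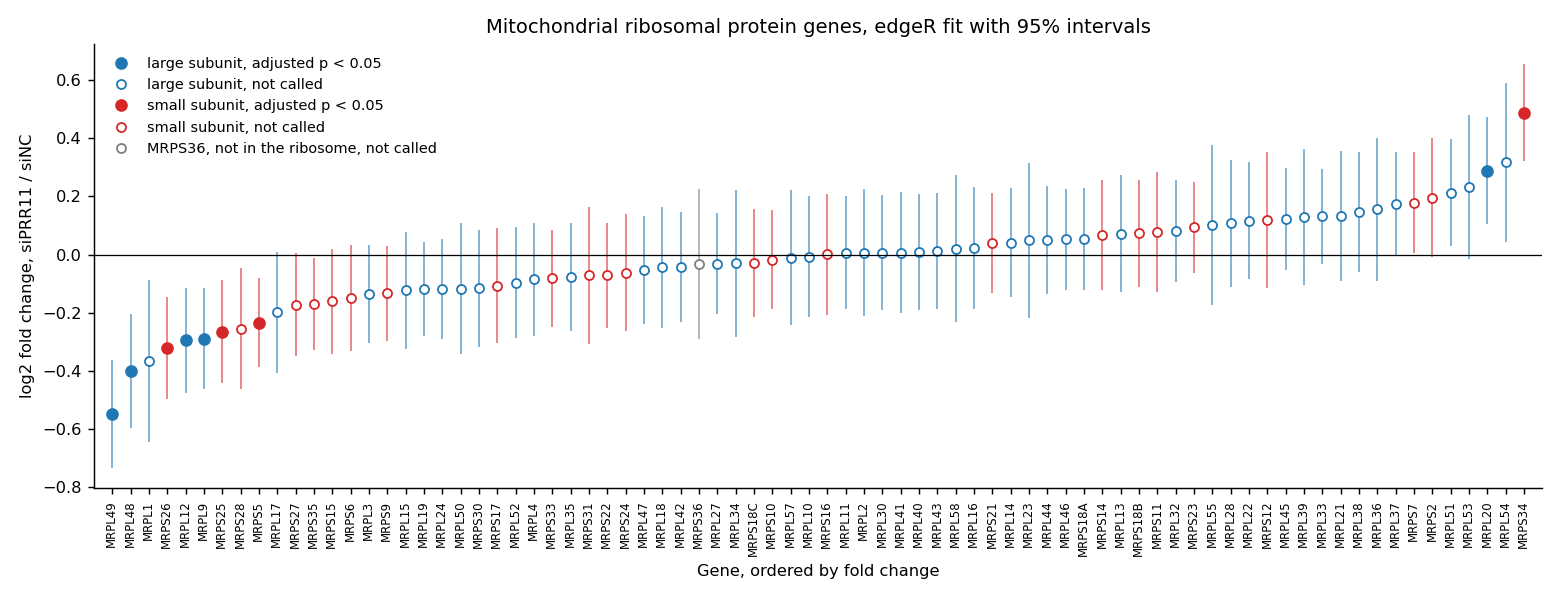
The log2 fold change of each of the 78 genes (y axis, siPRR11 over siNC) is plotted in order of size along the x axis, with 95% intervals from the edgeR fit, colored by the subunit that holds the protein and filled where the adjusted p was under 0.05. The 9 called genes lie between -0.55 and 0.49, and most of the others cross 0.

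The summed level of the family was 3642 and 3448 CPM in siNC and 3528 and 3513 CPM in siPRR11. Both siPRR11 values lay between the siNC values. The family took from 0.339% to 0.359% of all counts in each library. In bulk RNA, fewer cells expressing a transcript and less of it per cell cannot be told apart.

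The siPRR11 libraries lay wholly above siNC for 17 members and wholly below for 26 (29.1% and 29.3% of all genes tested, respectively). Genes called with 2 libraries per group mostly lack overlap by that choice. Where non-overlap is given for a called gene below, it describes the values and adds no support to the call. The control libraries differed from each other in one direction: siNC library 2 was below siNC library 1 for 55 of the 78 genes, and siPRR11 library 2 was below library 1 for 42. The same count was not made over all genes. Whether this offset goes with depth, and its part in the calls, was not tested.

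Both subunits held called genes in each direction. The shares called below compare with 16.7% of all genes tested and 25.1% of those in the expression range of the family. Among large-subunit genes, 1 was called higher and 4 lower of 51 (9.8%), with a median log2 fold change of 0.01. Among small-subunit genes, 1 was called higher and 3 lower of 26 (15.4%), with a median of -0.07. Genes with a bacterial counterpart gave 1 rise and 3 falls in 46 (8.7%). Genes classed as found only in mitochondria gave 1 rise and 4 falls in 32 (15.6%). MRPS18A and MRPS18B were put in the latter class, although they descend from the same bacterial protein as MRPS18C, which was put in the former. The latter class also counts MRPS36, whose product is not in the ribosome. The difference between these classes was not tested.

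Of the large subunit, MRPL49, a protein found only in mitochondrial ribosomes, fell the most. It measured 36.0 CPM in both siNC libraries and 25.2 and 24.0 CPM in the siPRR11 libraries. The groups were apart by over 10 CPM, with hardly any spread inside either (log2 fold change -0.55 ± 0.08 SE, edgeR adjusted p = 0.0013). The gene lies on chromosome 11, at chr11:65122183-65127371 of GRCh38 on the plus strand, and 12.2% of its exonic bases are shared with a gene on the other strand, mainly SYVN1. SYVN1, a ubiquitin ligase of the endoplasmic reticulum, was itself at -0.22 and not called (edgeR adjusted p = 0.11).

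MRPL48, another protein particular to mitochondria, measured 28.3 and 29.5 CPM in siNC and 21.2 and 22.6 CPM in siPRR11. Both silenced libraries were below both controls, and the fall was to 75.7% (log2 fold change -0.40 ± 0.09 SE, edgeR adjusted p = 0.0098). It lies at chr11:73787316-73865133, on the same chromosome and strand as MRPL49, and shares no exonic base with another gene.

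MRPL12 forms the flexible stalk by which the large subunit takes up translation factors. Its level was 48.8 and 45.3 CPM in siNC and 38.2 and 38.6 CPM in siPRR11 (log2 fold change -0.30 ± 0.08 SE, edgeR adjusted p = 0.028). The silenced libraries lay below the controls without overlap. On chromosome 17 (chr17:81703357-81707526, plus strand), 68.2% of its exonic bases also belong to RP13-1032I1.10 on the same strand, so reads there cannot be told from those of that gene. RP13-1032I1.10 had 52.6 and 48.0 CPM in siNC and 42.9 and 42.1 CPM in siPRR11, at -0.24 on the log2 scale, and was not called (edgeR adjusted p = 0.066).

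MRPL9, counterpart of bacterial L9, measured 54.9 and 51.5 CPM in siNC and 43.5 CPM in both siPRR11 libraries. It fell to 81.8% of the control level, with the groups apart (log2 fold change -0.29 ± 0.08 SE, edgeR adjusted p = 0.027). Its exons at chr1:151759643-151763564, minus strand, share 32.0% of their bases with the other strand, chiefly with OAZ3, which was at -0.16 and not called.

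MRPL20, counterpart of a bacterial protein that binds ribosomal RNA early in assembly, was the only called rise in the large subunit. It had 40.5 and 36.7 CPM in siNC and 47.7 and 46.6 CPM in siPRR11. Both silenced libraries exceeded both controls (log2 fold change 0.29 ± 0.08 SE, edgeR adjusted p = 0.036). The gene lies at chr1:1401908-1407313 on the minus strand. A 7SL pseudogene, RN7SL657P, lies in its exons and had under 0.5 CPM in each library.

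Of the small subunit, MRPS34 was the only called rise. It measured 107 and 99.5 CPM in siNC and 141 and 149 CPM in siPRR11. The gap between the groups was over 30 CPM, larger than the distance between libraries of either group (log2 fold change 0.49 ± 0.08 SE, edgeR adjusted p = 0.0013). MRPS34 is a mitochondria-specific protein that is needed for a stable small subunit. It lies at chr16:1771890-1773155 on the minus strand, and no other gene shares its exonic bases.

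MRPS26 stood at 48.4 and 46.9 CPM in siNC and 39.1 and 37.2 CPM in siPRR11 (log2 fold change -0.32 ± 0.08 SE, edgeR adjusted p = 0.018). MRPS25 stood at 78.6 and 71.1 CPM in siNC and 64.1 and 60.4 CPM in siPRR11 (-0.27 ± 0.08 SE, adjusted p = 0.045). Both encode mitochondria-specific proteins, and for both the silenced libraries were below the controls without overlap. MRPS26 (chr20:3045945-3048254, plus strand) shares no exonic bases, whereas MRPS25 (chr3:15042460-15065335, minus strand) shares 22.2% with the other strand, mainly with NR2C2, a nuclear receptor at -0.19 that was not called.

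MRPS5, counterpart of a bacterial protein at the site where messenger RNA enters the small subunit, had the highest CPM of the family. It measured 236 and 232 CPM in siNC and 201 and 196 CPM in siPRR11, a fall to 85.0% (log2 fold change -0.23 ± 0.07 SE, edgeR adjusted p = 0.039). It was the smallest of the 9 called changes, and the groups did not overlap. The gene spans chr2:95087207-95149434 on the minus strand.

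**Figure D2:**
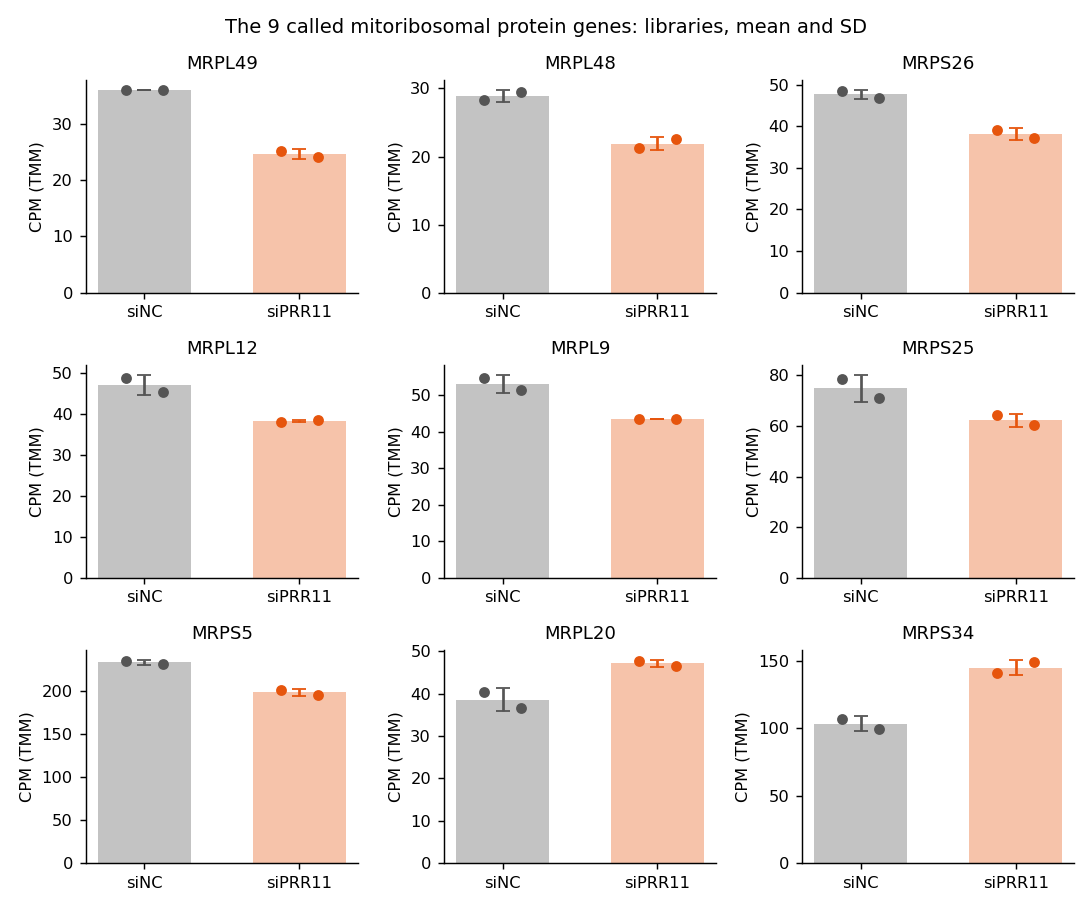
CPM (y axis, TMM-scaled, from 0) is plotted for each library (points) of the 9 called genes in siNC and siPRR11, with the mean as a bar and the SD of 2 libraries as the error bar. In each of the 9 panels the silenced libraries lie wholly on one side of the controls, above for MRPL20 and MRPS34 and below for the other genes. Genes chosen by a low p with 2 libraries per group mostly show this.

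With 2 libraries per group, 7 of the 9 calls were lost in at least 1 of the 4 fits that left out a library. MRPL49 and MRPS34 were called whichever library was left out, with log2 fold changes from -0.58 to -0.51 and from 0.43 to 0.54. MRPL48 was not called without siPRR11 library 1 (-0.35). MRPS26 lost its call without siPRR11 library 1 (-0.36) or library 2 (-0.28). For MRPS5 this was so without siPRR11 library 1 (-0.25) or library 2 (-0.22). The calls of MRPL12, MRPL9 and MRPS25 held only without siNC library 2. Without siNC library 1, siPRR11 library 1 and siPRR11 library 2, in that order, these were at -0.24, -0.29 and -0.30 (MRPL12), at -0.24, -0.29 and -0.29 (MRPL9) and at -0.19, -0.31 and -0.22 (MRPS25). MRPL20 held only without siNC library 1, and was at 0.22, 0.27 and 0.30 without siNC library 2, siPRR11 library 1 and siPRR11 library 2. Each of the 9 kept its sign in these fits. On the deposited RPKM values (limma on log2 of RPKM plus 1), MRPL49 and MRPS34 alone were called.

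A further 6 genes had an unadjusted p under 0.05 and did not pass the adjustment, and they are named after their values were seen. MRPL1, MRPS28 and MRPS35 were at -0.37, -0.26 and -0.17 on the log2 scale (edgeR adjusted p = 0.07, 0.091 and 0.14). MRPL54, MRPL51 and MRPS7 were at 0.32, 0.21 and 0.18 (edgeR adjusted p = 0.11, 0.11 and 0.15). For all 6 the groups did not overlap, which is likely for any genes picked by a low p with 2 libraries per group.

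The MRPS18 paralogs descend from 1 bacterial protein. MRPS18A lies in the large subunit, and MRPS18B and MRPS18C occupy the small one. MRPS18A had 37.3 and 38.3 CPM in siNC and 39.1 and 39.4 CPM in siPRR11 (log2 fold change 0.05 ± 0.08 SE). MRPS18B had 66.8 and 59.0 CPM against 67.7 and 64.7 CPM (0.07 ± 0.08 SE). MRPS18C had 66.1 and 57.9 CPM against 62.2 and 59.5 CPM (-0.03 ± 0.09 SE). None of the 3 was called (edgeR adjusted p = 0.71, 0.61 and 0.86), and the 95% intervals ran from -0.12 to 0.23, from -0.11 to 0.26 and from -0.21 to 0.16. MRPS18A and MRPS18C share 47.0% and 40.2% of their exonic bases with a gene on the other strand, RSPH9 and FAM175A. MRPS36, whose product is not ribosomal, was at -0.03.

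Although its proteins are built into 1 particle, the family's transcript levels spanned a wide range. Per kilobase of all annotated exons, as in the deposited RPKM, the mean siNC level ran from 2.18 for MRPL42 to 92.7 for MRPS34, a 42.5-fold range with a median of 13.6 RPKM. MRPS34 (96.2 and 89.2 RPKM in the siNC libraries) came first. It was followed by MRPL51 (87.4 and 74.8 RPKM), MRPS9 (71.0 and 65.2 RPKM) and MRPL24 (58.9 and 53.0 RPKM). These 4 genes did not overlap between neighbors in the order, though MRPS34 and MRPL51 were separated by less than the gap between the MRPL51 libraries. In siPRR11, MRPS34 (131 and 138 RPKM), MRPL51 (98.9 and 95.6 RPKM) and MRPS9 (64.1 RPKM in both libraries) again came first. MRPL24 (53.9 and 52.6 RPKM) came after MRPS7 and MRPL33 there.

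At the lower end, MRPL42 had 2.12 and 2.24 RPKM in siNC, MRPS30 3.01 and 2.98, MRPL55 3.49 and 3.07 and MRPL23 3.77 and 3.04. MRPL55 and MRPL23 overlapped with each other, and MRPL42 and MRPS30 with none of these 4. The annotated length enters this order. MRPL42 has 16393 exonic bases and 36.4 CPM, so it is not low by reads, whereas MRPL55 has 6.30 CPM.

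Gene models with long alternative exons lower the RPKM of some members, so levels were also set per kilobase of the canonical transcript of GENCODE release 44, a length chosen after the RPKM values were seen. The counts still held reads from all exons of the gene. By this measure MRPL33 (149 ± 0.52 CPM per kilobase, SD, n = 2), MRPS7 (144 ± 12) and MRPL51 (142 ± 15.5) came first and were within their spread of one another, while MRPS34 ranked 5 at 104 ± 5.42. MRPL42 remained last at 2.34 ± 0.09, since its canonical transcript is also long (15557 bases). The range widened to 63.7-fold, and 45 of the 78 genes lay within 2-fold of the median of 23.2 CPM per kilobase.

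**Figure D3:**
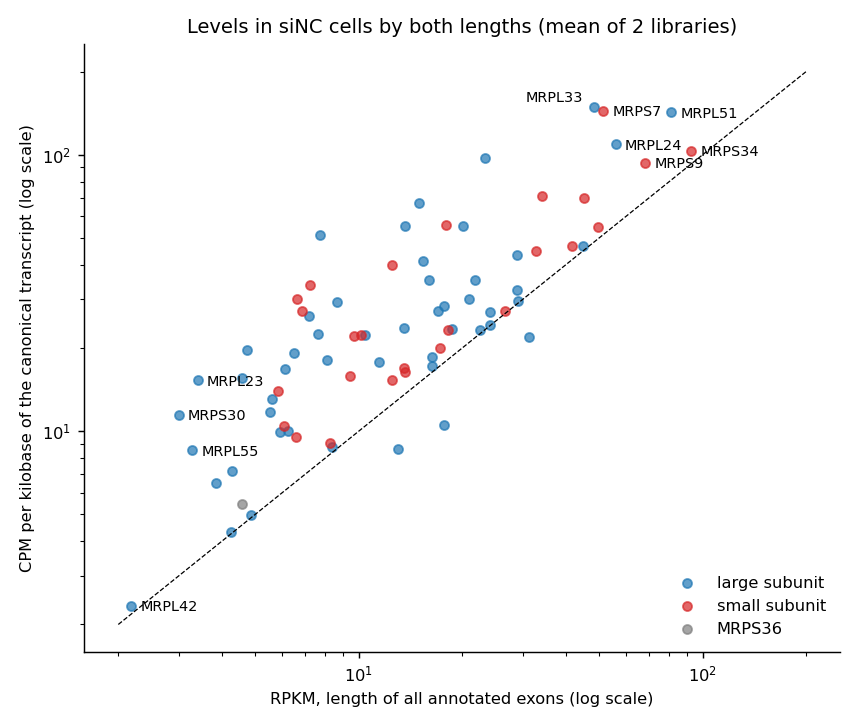
The mean siNC level of each gene per kilobase of all annotated exons (x axis, RPKM, log scale) is plotted against that per kilobase of its canonical transcript (y axis, CPM per kilobase, log scale), with the line of equality dashed. Most genes lie above the line, MRPL33 rising from 48.3 RPKM to 149 CPM per kilobase, and MRPL42 is lowest by both lengths.

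Across the 78 genes, the mean siNC level in CPM and the log2 fold change had a Spearman rho of -0.13, a description only, since the genes share libraries. Pseudogenes of the family, kept out by the rule, added little: 24 of them held from 0.412% to 0.50% of the family's count per library. MRPS31 is the exception, with 761 to 1290 counts per library beside 444 to 798 for MRPS31P4 and 475 to 738 for MRPS31P5, so that its reads and theirs are uncertain. Exonic bases were shared with some other gene by 40 of the 78 members, over 20% of them by 14 members.

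Promoters of genes for mitochondrial proteins often hold sites of NRF1 and of GABPA (NRF-2), factors known for coordinating nuclear genes of respiration, and sites of YY1, which binds near start sites. RefSeq windows from 250 bases before to 50 after the start were found for 69 of the 78 genes and searched on both strands. Only exact matches to the letters were counted (N stands for any base). Sites that differ by a letter or more were missed, so a window without a match may still hold a site. Members with several windows were given that nearest the canonical start, and other genes the first listed. The shares below therefore rest on windows chosen by different rules, and the effect of this was not tested. The NRF1 letters GCGCANGCG were in 14 windows, or 20.3%, against 13.6% of the 11704 tested genes with a window. The GABPA letters CCGGAAGT were in 12, or 17.4%, against 7.86%. The YY1 letters AAGATGGCG were in 13, or 18.8%, against 3.51%. The letters ACTACAATT, of THAP11 and ZNF143, were in 0 of the 69, against 0.581%. At least 1 of the 4 motifs was in 34 windows (49.3%, against 23.1%), and some windows held more than 1. The members' windows had a median GC content of 60.3%, compared with 65% over all.

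The median log2 fold change was -0.004 for members with the GABPA letters and 0.0005 for those without. With and without the NRF1 letters the medians were 0.02 and -0.02, and for the YY1 letters they were 0.05 and -0.005. Both called rises, MRPL20 and MRPS34, have the GABPA letters in their windows, and the 7 called falls have no exact match to any of the 4 motifs. This is a description of 9 genes, and it was not tested. The windows of both rises are given here with those of MRPS25 and MRPL12, which fell, to show where these letters lie. They come from the RefSeq table (GRCh38.p14), run in the sense of transcription, and were trimmed so that few exonic bases remain. Capitals mark the GABPA letters, on the sense strand 44 bases before the start in MRPL20 and on the other strand 20 bases before it in MRPS34.
MRPL20, chr1:1407294-1407413, minus strand: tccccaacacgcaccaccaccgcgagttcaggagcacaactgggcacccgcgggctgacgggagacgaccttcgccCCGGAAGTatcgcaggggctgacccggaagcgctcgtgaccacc
MRPS34, chr16:1773135-1773215, minus strand: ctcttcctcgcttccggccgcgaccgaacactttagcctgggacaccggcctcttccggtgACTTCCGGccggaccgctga
MRPS25, chr3:15065316-15065435, minus strand: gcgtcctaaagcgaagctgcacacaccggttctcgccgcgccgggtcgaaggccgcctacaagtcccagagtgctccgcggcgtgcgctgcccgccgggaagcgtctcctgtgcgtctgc
MRPL12, chr17:81703281-81703366, plus strand: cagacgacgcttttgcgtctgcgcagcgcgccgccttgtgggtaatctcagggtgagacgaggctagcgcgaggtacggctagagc

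Many members start near another gene. For 33 members another gene starts within 1000 bases on the other strand and runs away from it. A start here is the outermost annotated end of a gene, which can lie far from the canonical start. For MRPL11 these are at 66466738 and 66438848, and for MRPS22 at 139005806 and 139344020. Of the 34 such pairs, which hold MRPL46 with MRPS11 in both orders, 32 had a neighbor that was tested. Among these neighbors 3 were called higher and 1 lower, against 16.7% of all genes tested called in either direction. In none of the pairs with a called neighbor was the ribosomal gene called. The 4 pairs are named after their values were seen.

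MRPL27 lies 6 bases from EME1, a subunit of an endonuclease that cuts branched DNA. EME1 rose from 25.7 and 21.2 CPM in siNC to 46.8 and 42.8 CPM in siPRR11 (log2 fold change 0.93 ± 0.10 SE, edgeR adjusted p = 0.00016), while MRPL27 was at -0.03. MRPL57 starts 43 bases from SKA3, which encodes a kinetochore protein. SKA3 rose from 22.1 and 19.8 CPM to 32.3 and 31.2 CPM (0.60 ± 0.09 SE, edgeR adjusted p = 0.0013), and MRPL57 was at -0.01. In these 2 pairs the neighbor moved and the ribosomal gene stayed within a log2 change of 0.05.

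MRPL43 and C10orf2, the gene of the mitochondrial DNA helicase Twinkle, start 148 bases apart. C10orf2 had 130 and 172 CPM in siNC and 99.6 and 118 CPM in siPRR11 (-0.47 ± 0.12 SE, edgeR adjusted p = 0.020), and MRPL43 was at 0.01. The siNC libraries of C10orf2 differed widely, and its log2 fold change was -0.66 without siNC library 1 and -0.26 without siNC library 2. It was not called by limma (-0.40 with a pseudocount of 1). MRPL51 and NCAPD2, a condensin subunit, start 485 bases apart and were both positive. However, MRPL51 shares 31.3% of its exonic bases with the other strand, mainly with NCAPD2. With the strand setting unknown, its level and change may hold reads of NCAPD2. NCAPD2 was called (0.29 ± 0.07 SE, edgeR adjusted p = 0.016), though not without siPRR11 library 1 (0.27) or library 2 (0.31), and MRPL51 was at 0.21.

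Of the called members, MRPL49 starts 290 bases from FAU, which encodes a cytosolic ribosomal protein. FAU had 120 and 118 CPM in siNC and 105 and 111 CPM in siPRR11, at -0.15, and was not called. MRPS34 starts 52 bases from EME2, which was at 0.19 and not called either. The differences between members and their neighbors were not tested.

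**Figure D4:**
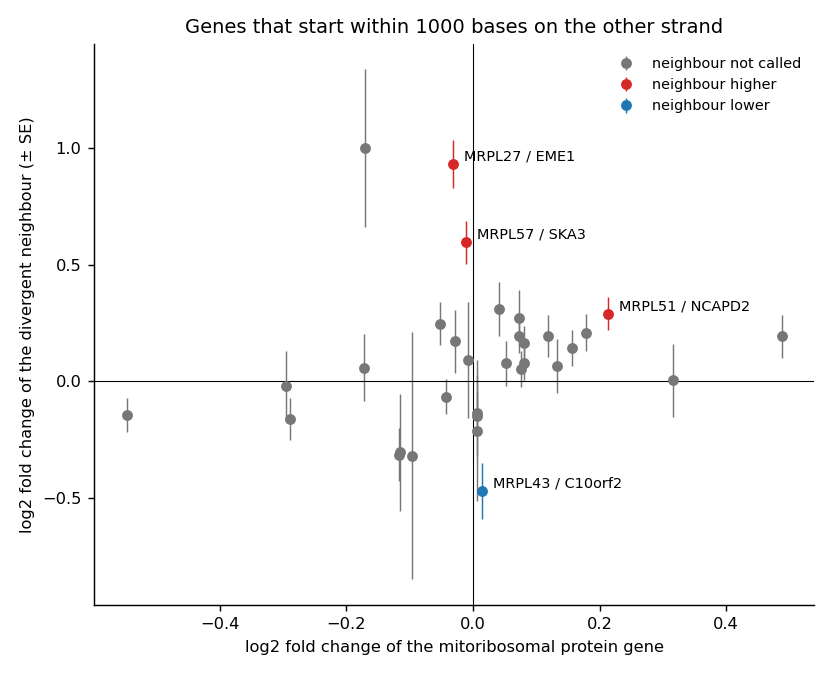
The log2 fold change of each gene that starts within 1000 bases on the other strand (y axis, with SE) is plotted against that of its mitochondrial ribosomal protein gene (x axis). EME1, SKA3 and C10orf2 sit at 0.93, 0.60 and -0.47 above or below ribosomal genes that lie close to 0.

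Mitochondrial ribosomal proteins with other symbols changed in 2 of 6 cases (33.3%, against 16.7% of all genes tested). GADD45GIP1, a large-subunit protein at the exit of the nascent peptide, fell from 65.6 and 63.8 CPM in siNC to 43.1 and 42.1 CPM in siPRR11, a fall larger than that of any MRPL or MRPS gene (log2 fold change -0.60 ± 0.08 SE, edgeR adjusted p = 0.00039). Its call held whichever library was left out. PTCD3, of the small subunit, rose from 96.7 and 98.5 CPM to 117 and 114 CPM (0.24 ± 0.07 SE, edgeR adjusted p = 0.039), but was not called without siNC library 1 (0.23), siPRR11 library 1 (0.22) or siPRR11 library 2 (0.27). DAP3, AURKAIP1, CHCHD1 and NDUFAB1 were not called.

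Factors that assemble the mitochondrial ribosome gave 2 rises and 4 falls in 26 genes, with a median log2 fold change of -0.01. That is 23.1% called, against 16.7% of all genes tested and 25.1% of those in the expression range of the family. The 4 with the largest changes are described here. RPUSD4, a pseudouridine synthase that acts on 16S ribosomal RNA, fell from 29.5 and 30.7 CPM to 14.4 and 15.2 CPM, 49.2% of the siNC level (-1.02 ± 0.09 SE, edgeR adjusted p = 3.8e-05). NSUN4, a methyltransferase of 12S ribosomal RNA, fell from 21.4 and 19.7 CPM to 12.3 and 12.8 CPM (-0.72 ± 0.10 SE, edgeR adjusted p = 0.00059). GTPBP6, a GTPase that acts on the large subunit, fell from 25.2 and 24.6 CPM to 16.5 and 17.1 CPM (-0.57 ± 0.09 SE, edgeR adjusted p = 0.0015). Leaving out any 1 library kept the calls of RPUSD4, NSUN4 and GTPBP6. YBEY, an endonuclease of ribosomal RNA processing, rose from 2.47 and 2.60 CPM to 3.52 and 3.92 CPM (0.55 ± 0.16 SE, edgeR adjusted p = 0.034), and lost its call without siNC library 1 (0.51), siPRR11 library 1 (0.63) or siPRR11 library 2 (0.47).

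Mitochondrial translation factors gave 1 rise and 2 falls in 18 genes (median -0.05), or 16.7% called, the same share as over all genes tested. C12orf65, which rescues stalled ribosomes, had 51.9 and 41.3 CPM in siNC and 34.1 and 32.6 CPM in siPRR11 (-0.49 ± 0.11 SE, edgeR adjusted p = 0.0087). Its change was -0.31 without siNC library 1 and -0.64 without siNC library 2, and it was not called by limma (-0.36 with a pseudocount of 1). The recycling factor GFM2 rose from 76.6 and 74.4 CPM to 95.7 CPM in both silenced libraries (0.34 ± 0.07 SE, edgeR adjusted p = 0.0080), but was not called without siPRR11 library 1 (0.34) or library 2 (0.34). The release factor MTRF1L fell from 40.0 and 41.9 CPM to 33.7 and 33.4 CPM (-0.29 ± 0.08 SE, edgeR adjusted p = 0.032), but was not called without siNC library 2 (-0.26), siPRR11 library 1 (-0.29) or siPRR11 library 2 (-0.28).

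The aminoacyl-tRNA synthetases and amidotransferase subunits of mitochondria charge the transfer RNAs the ribosome reads. They gave 1 rise and 6 falls in 22 genes. That is 31.8% called, against 16.7% of all genes tested and 25.1% of those in the expression range of the family. The median of the 22 was -0.12, and 18 of them were below 0, as were 10755 of the 21630 genes tested. The difference from all genes was not tested. LARS2, YARS2, CARS2 and TARS2, for leucine, tyrosine, cysteine and threonine, fell to between 71.8% and 76.3% of the siNC level (log2 fold changes -0.48, -0.41, -0.41 and -0.39, edgeR adjusted p = 0.0050, 0.046, 0.010 and 0.016). Each of these calls was lost in at least 1 fit, that of LARS2 and TARS2 without siPRR11 library 2 (-0.39 and -0.30), that of CARS2 without siPRR11 library 1 (-0.37) and that of YARS2 without siNC library 1 (-0.36) or siPRR11 library 2 (-0.27).

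For transcription and RNA processing inside mitochondria, 1 gene rose and 1 fell of 19 (median 0.001). That is 10.5% called, against 16.7% of all genes tested. POLRMT, the mitochondrial RNA polymerase, fell from 41.9 and 37.0 CPM to 29.97 and 27.5 CPM (-0.46 ± 0.09 SE, edgeR adjusted p = 0.0063), with an adjusted p of 0.050 and a change of -0.40 by edgeR without siPRR11 library 2. FASTK, which acts on mitochondrial transcripts, rose from 21.8 and 19.7 CPM to 26.3 and 25.1 CPM (0.31 ± 0.09 SE, edgeR adjusted p = 0.042), and was not called without siNC library 2 (0.24), siPRR11 library 1 (0.28) or siPRR11 library 2 (0.34). Of 13 nuclear factors and coactivators that act on genes of mitochondrial proteins, MYC alone was called (7.69%, against 16.7% of all genes tested). MYC fell from 73.5 and 81.0 CPM to 39.0 and 44.5 CPM (-0.89 ± 0.09 SE, edgeR adjusted p = 9.2e-05), in every fit that left out a library.

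The transcripts that the ribosome is built on or reads come from mitochondrial DNA. Of the 13 messenger RNAs, 1 was called (7.69%, against 16.7% of all genes tested). MT-CO1, for a core subunit of complex IV, was called higher, at 4958 and 4506 CPM in siNC and 5692 and 5511 CPM in siPRR11 (0.24 ± 0.08 SE, edgeR adjusted p = 0.045). It was not called without siNC library 2 (0.17) or siPRR11 library 1 (0.22), with a minimum of 10 counts per library (edgeR adjusted p = 0.053) or by limma (adjusted p = 0.28 with a pseudocount of 1), and the median of the 13 was 0.12. MT-RNR1, the 12S ribosomal RNA, was called lower, at 225 and 242 CPM in siNC and 190 and 201 CPM in siPRR11 (-0.26 ± 0.07 SE, edgeR adjusted p = 0.036). It lost its call without siNC library 2 (-0.21), siPRR11 library 1 (-0.21) or siPRR11 library 2 (-0.30). MT-RNR2, the 16S ribosomal RNA, was at 0.08 and was not called. The labels name a kit for messenger RNA libraries, and how much of either ribosomal RNA it carried over was not measured.

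Cytosolic ribosomal protein genes, the nearest family in function, gave 0 rises and 7 falls in 77 genes at edgeR adjusted p under 0.05, with 9 of the 77 at an unadjusted p under 0.05, and DESeq2 and limma also called 0 higher. Their median log2 fold change was -0.03, and 89.6% of them changed by less than 0.2. The largest fall was that of RPL11, from 268 and 280 CPM to 161 and 162 CPM (-0.76 ± 0.07 SE, edgeR adjusted p = 5.0e-05). The share called was 9.09% there, 11.5% in the mitochondrial family and 16.7% over all genes tested. The difference between the families was not tested.

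**Figure D5:**
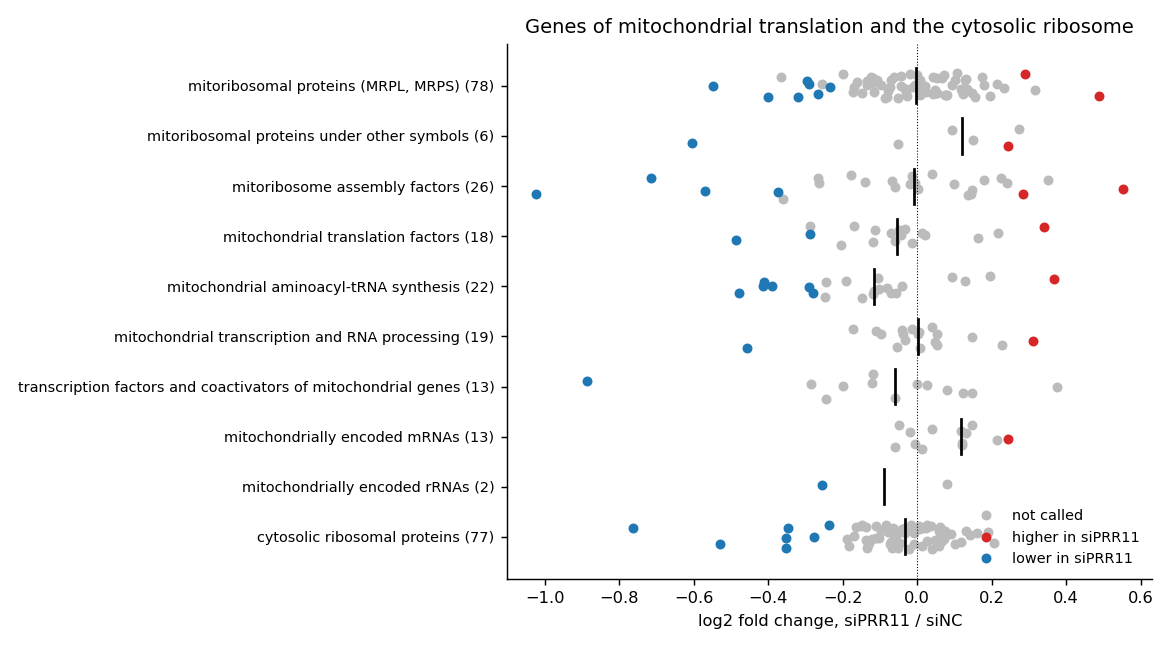
The log2 fold change of each gene (x axis, siPRR11 over siNC) is plotted for the mitochondrial ribosomal proteins and the lists around them (number of genes in brackets), with called genes in red or blue and the median as a black line. The medians lie between -0.12 and 0.12, and the farthest single genes are RPUSD4 at -1.02 and MYC at -0.89.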

How the data were processed

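RNA of 4 libraries of ACHN cells (2 siNC, 2 siPRR11) was analysed, with groups taken from the sample labels. Per the labels, libraries were made with a stranded kit for messenger RNA. Per the study's methods, reads were trimmed, aligned to GRCh38 with STAR and counted with featureCounts. The submitters' processing notes name Trimmomatic 0.36 and Subread 1.5.1. The annotation release and the strand setting are not given in the sources used here, so bases shared by genes on opposite strands are uncertain. The authors deposited raw counts per gene and RPKM values, which divide those counts by exonic length and library total. Most low counts were even, so a pair of mates may have counted as 2. The part of counting error in the spread of single genes was not tested.

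Counts were tested with edgeR 4.0.16 (R 4.3.3): TMM scaling, filterByExpr, the quasi-likelihood test with condition as the only term, and Benjamini-Hochberg adjustment over all 21630 genes tested, with calls at adjusted p under 0.05. SEs were obtained from the F statistics. Alternatives were RLE scaling, DESeq2 1.42.0, no filter, at least 10 counts in every library, a replicate block, limma 3.58.1 on log2(RPKM + 1) and log2(RPKM + 0.1), and each library left out. Fits without a library leave 1 library in a group, which is assumed to vary like the other group. Coordinates, exon overlap and neighboring starts come from the exon positions in the deposited count table (GRCh38). Canonical transcripts come from GENCODE release 44, and promoter windows from RefSeq (GRCh38.p14). Scripts were tested on simulated data.

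The genes and lists were chosen with earlier results of these data known, as were the subunit classes. Named were all members called, the 4 highest and 4 lowest by mean siNC RPKM, the MRPS18 paralogs, PRR11 and up to 4 called genes of each list by size of change. RPL11 and the genes said to be named after their values were seen are exceptions.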

Additional observations from a re-analysis of the deposited data

How the results depend on the processing

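The family stood near its control level under every alternative run. Its median log2 fold change of -0.003 moved by more than 1 SD of the libraries' medians with limma (0.0396 and 0.0445 with pseudocounts of 1 and 0.1, where the all-gene medians were 0.0206 and 0.0447), without siNC library 2 (-0.0523, the lowest with a library left out) and without siNC library 1 (0.0372, the highest). The 9 calls were the same genes with RLE scaling, DESeq2, no filter or at least 10 counts. Members called higher were 2 by the test reported, 1 with limma on log2(RPKM + 1), and from 1 to 6 without 1 library. Members called lower were 7, then 1 with limma at a pseudocount of 1 or of 0.1, and from 1 to 9 without 1 library. Without siNC library 1 there were 6 rises and 4 falls, without siNC library 2 1 and 9, without siPRR11 library 1 1 and 1, and without siPRR11 library 2 1 and 2. The cause was not tested. PRR11 was called lower in every fit, from -1.54 to -1.41 when a library was left out. With the replicate block, 5 members were called higher and 11 lower, the 9 and 7 more, against 32.3% of all genes. With the block, 3 cytosolic ribosomal protein genes and 1 marker of other cell types were also called higher. The replicate numbers are not known to pair the libraries: deviations from the group means correlated at 0.165 between libraries of the same number. With 2 libraries per group, both numbers give this same value by construction. The sign changed for 2 of the 3 MRPS18 paralogs, none of them called. MRPS18B ran from -0.017 (without siNC library 2) to 0.164 when a library was left out, and MRPS18C from -0.124 to 0.0681 (without siNC library 1), with 0.021 and 0.0227 by limma at pseudocounts of 1 and 0.1. Of the 18 called genes named from the other mitochondrial lists, limma with either pseudocount called 6 (GFM2, GADD45GIP1, RPUSD4, NSUN4, GTPBP6 and MYC). DESeq2 lost YARS2 and YBEY, and the minimum of 10 counts lost MT-CO1. Summed over genes, libraries of a group differed beyond counting error (chi-square per degree of freedom 19 in siNC and 12.9 in siPRR11). Genes with many counts weigh most in this sum, and mates counted as 2 would raise it. The part of depth in the precision of single genes was not tested.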
